A study of Mus musculus with 18 samples.

Results

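Long intergenic noncoding RNAs (lincRNAs) were followed through meiotic maturation of mouse oocytes with and without Lsm14b. A lincRNA was counted as expressed when its gene identifier carried the GENCODE vM21 type lincRNA and its level reached 1 FPKM (fragments per kilobase of exon, scaled to the depth of the library) in 3 or more of 18 libraries. By this rule 499 of the 2428 lincRNAs in a table of 27874 genes were members, and 1929 were not. They were thus chosen by their FPKM in these same libraries, so that they were detected is no finding. Just inside the rule stood Gm49128 and Gm48773, for which the third highest value was 1.01 FPKM, and just outside it 4933432G23Rik at 0.990 and Gm36447 at 0.995. Oocytes came from wild-type mice (WT) and from Lsm14b-/- mice (KO), and the labels give neither strain nor age. The stages sampled were prophase arrest with an intact germinal vesicle (GV), metaphase I (MI) and the time 14 h after hCG, the hormone that triggers ovulation. That time is called MII in the labels of both genotypes, which do not say which stage each KO oocyte had reached. Each of the 6 groups had 3 libraries of 15 pooled oocytes. The labels do not say whether these came from separate mice, so the p-values measure the spread between such pools.

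lincRNAs are transcribed from the DNA between protein-coding genes and are mostly spliced and polyadenylated, as mRNAs are. Growing mouse oocytes make many of them, some from promoters that lie in long terminal repeats of retrotransposons. Transcription is largely silenced around the end of oocyte growth. Lsm14b encodes an RNA-binding protein of the particles in which oocytes store RNA. The cDNA was primed with oligo(dT), so the amount of an RNA and the length of its poly(A) tail cannot be told apart here. FPKM is scaled to the depth of the library, so each value is relative to the other RNAs of its library. A change in the total RNA per oocyte is not seen.

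Recovered reads in genes ran from 14227763 to 17183681 per library. Lsm14b itself stood at 2.04 to 11.2 FPKM in WT libraries and at 0 to 0.234 FPKM in KO libraries. The 12 oocyte markers summed to 9891 to 25979 FPKM in every library. The 16 markers of cumulus and granulosa cells summed to 4.16 to 8.55 FPKM in WT GV, 7.47 to 8.01 in KO GV, 6.04 to 9.37 in WT MI, 5.55 to 6.90 in KO MI, 8.01 to 10.1 in WT MII and 5.60 to 7.28 in KO MII. Of them 4 reached 1 FPKM in some library (Inha, Cyp19a1, Kitl and Fshr), and the others, with Amh, Foxl2 and Fst among them, did not. The 7 blood markers in the table summed to 0.507 to 0.738 FPKM in WT GV and 1.71 to 2.23 in KO GV, and to as much as 30.3 in WT MI and 7.73 in KO MII. Their part in the results was not tested. The second KO GV library stood apart from its group, with 22% of its lincRNA signal in the 10 most abundant members against 33.9% and 34.2% in the other two. Counts at GV are also given without it.

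The last 100 bases of 5 members show the signals that RNA 3′ ends can carry. They are shown because cytoplasmic polyadenylation elements (CPE, the letters TTTTAT or TTTTAAT) bind the protein that drives tail lengthening in maturing oocytes. Each is the end of the longest GENCODE transcript of the gene on the GRCm38 (mm10) build, 5′ to 3′. Capitals mark each CPE and each poly(A) signal (AATAAA or ATTAAA) that lies in the last 40 bases. Some of these overlap, as in the run TTTTAATAAA.
Gm11381: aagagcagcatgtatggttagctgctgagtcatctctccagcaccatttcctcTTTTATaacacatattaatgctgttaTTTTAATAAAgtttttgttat
Gm19299: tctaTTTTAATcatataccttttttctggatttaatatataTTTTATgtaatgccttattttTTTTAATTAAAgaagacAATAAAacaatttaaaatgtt
Gm20617: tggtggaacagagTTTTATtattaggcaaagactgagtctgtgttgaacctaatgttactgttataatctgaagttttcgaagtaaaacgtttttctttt
A530021J07Rik: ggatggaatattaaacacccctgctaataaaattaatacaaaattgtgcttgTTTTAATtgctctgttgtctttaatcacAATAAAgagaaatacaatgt
4933439N14Rik: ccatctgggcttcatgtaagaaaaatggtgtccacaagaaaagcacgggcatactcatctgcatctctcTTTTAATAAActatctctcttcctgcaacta
Gm11381 (chr13:32379907-32383688, minus strand) and Gm19299 (chr9:67133560-67213918, plus strand) rose from GV to MII in WT. Gm20617 (chr6:6456189-6484487, minus strand), A530021J07Rik (chr7:83061783-83179429, plus strand) and 4933439N14Rik (chr8:12502899-12505341, plus strand) were lower in KO at each stage, as was Gm19299. These 2 traits overlap. Gm11381 was lower in KO at MII (log2 change -1.41), which did not hold without the second KO MII library. In WT, Gm20617 had 213 to 377 reads at GV and 686 to 978 at MII, and A530021J07Rik 88 to 106 and 214 to 256.

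The first 150 bases of 4 other members show a stretch that many expressed lincRNAs share at their 5′ ends. Capitals mark the bases aligned between Gm38025 and its closest match Gm33056 in these 2, and with Gm38025 in Gm12050 and Gm3143.
Gm38025: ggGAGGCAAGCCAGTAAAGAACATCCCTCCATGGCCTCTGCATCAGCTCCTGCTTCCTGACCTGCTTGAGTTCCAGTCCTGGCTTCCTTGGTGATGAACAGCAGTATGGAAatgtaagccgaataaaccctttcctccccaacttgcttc
Gm33056: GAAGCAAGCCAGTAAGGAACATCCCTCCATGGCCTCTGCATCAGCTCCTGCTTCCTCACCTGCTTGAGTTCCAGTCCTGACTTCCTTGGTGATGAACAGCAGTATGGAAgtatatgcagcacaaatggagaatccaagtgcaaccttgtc
Gm12050: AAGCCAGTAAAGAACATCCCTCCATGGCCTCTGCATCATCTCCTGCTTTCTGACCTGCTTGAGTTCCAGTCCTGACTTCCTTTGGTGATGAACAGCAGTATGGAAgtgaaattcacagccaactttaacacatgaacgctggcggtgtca
Gm3143: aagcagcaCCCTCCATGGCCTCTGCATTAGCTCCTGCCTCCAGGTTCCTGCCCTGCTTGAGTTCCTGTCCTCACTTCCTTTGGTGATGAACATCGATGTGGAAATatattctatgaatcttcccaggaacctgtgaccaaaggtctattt
The stretch of Gm33056 was 96.3% identical to that of Gm38025 over 109 bases, that of Gm12050 96.2% over 105 and that of Gm3143 82.5% over 97. These genes lie on different chromosomes or far apart: Gm38025 at chr3:31341012-31345280 and Gm3143 at chr3:34699640-34716662, Gm33056 at chr10:19290989-19325817 and Gm12050 at chr11:22438821-22439775. Gm33056, Gm12050 and Gm3143 were picked for this match after their values had been seen. No repeat annotation was used, and whether the stretch belongs to a repeat was not tested.

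Most expressed lincRNAs were short, spliced and low. Their exons covered a median of 906 bases (217 to 7540) in a median of 3 exon blocks, and 14 had a single exon block. Their mean level over the 18 libraries had a median of 2.32 FPKM with quartiles of 1.02 and 7.28, against a median of 4.53 FPKM for the 8582 protein-coding genes that passed the same minimum. The highest mean was 868 FPKM and the lowest 0.228, while 102 members averaged 10 FPKM or more and 11 averaged 100 or more. The minimum was reached in all 18 libraries by 181 members. A member had a median of 34 reads per library, and 101 members had a median under 10 reads, where counting error is large. The median distance to the nearest protein-coding gene was 46.9 kb, with 89 members within 5 kb of one and 26 overlapping one. Exon bases were shared with another gene in 55 members, and since the strand of the libraries is not given, reads of such genes cannot be assigned with certainty. A near-identical copy elsewhere (95% identity over 50% of the transcript) was found for 35 members. Chromosome 13 held the most members (46), then chromosomes 1 and 8 (42 each) and chromosome 6 (41), and chromosome 18 held 2. In all, lincRNAs took 1.18% to 2.09% of the FPKM of a library. The share was lower in every KO library than in every WT library of its stage. It was lowest in KO GV (1.18%, 1.28% and 1.23%, against 1.60%, 1.504% and 1.78% in WT GV). At MI it was 1.62%, 1.62% and 1.33% in KO against 2.01%, 2.09% and 1.71% in WT. At MII it was 1.74%, 1.59% and 1.44% in KO against 2.04%, 1.93% and 1.89% in WT. Outside the second KO GV library, the 10 most abundant members held 33.9% to 58.3% of the lincRNA signal. Their part in these differences was not tested.

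The most abundant lincRNA was Gm1965, which lay beside 2 other members of the top 10. Gm1965 (chr6:89140994-89147388), 4933427D06Rik (chr6:88950683-89110031) and Gm839 (chr6:89211165-89216237) occupied 265.6 kb of chromosome 6, and no other expressed lincRNA lay between them. Gm1965 stood at 707, 833 and 717 FPKM in WT GV and at 367, 123 and 372 in KO GV. The groups did not overlap, and KO GV was lower by limma's test with Benjamini-Hochberg adjustment over 10320 genes (log2 change -1.55 with SE 0.35, adjusted p = 0.00609). Later its KO libraries were again below the WT libraries, but the differences did not pass the test (-0.73 at MI, adjusted p = 0.165, and -0.72 at MII, adjusted p = 0.134). The call at GV was lost when the model held the 2 GV groups alone (adjusted p = 0.0920). Its neighbours did not follow it past the threshold. Gm839 had a log2 change of -0.35 at GV (adjusted p = 0.402), and 4933427D06Rik had -0.46 (adjusted p = 0.209).

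Among the other most abundant members, C86187 and Gm47066 were lower in KO and Gm17751 was higher in KO at MII. C86187 (chr7:46967711-46975911) stood at 409, 413 and 368 FPKM in WT GV and 102, 69.9 and 55.0 in KO GV, and at 699, 526.7 and 630.1 in WT MII and 219, 208 and 177 in KO MII. Every KO library was below every WT library at both stages, and limma called all 3 stages (-2.42, -1.21 and -1.61 at GV, MI and MII, adjusted p = 3.01e-06, 0.00172 and 5.98e-05). Gm31941 shares 14.5% of its exon bases. Gm47066 stood at 277, 235 and 264 FPKM in WT MI and 129, 128 and 62.6 in KO MI (log2 change -1.34 with SE 0.27, adjusted p = 0.00196). It was also lower at GV (-1.08, adjusted p = 0.00983), a call lost without the third WT GV library (adjusted p = 0.0539) or with the 2 GV groups alone (0.0769), and did not pass at MII (-0.68, adjusted p = 0.0647). AU016765 had differences of -0.12, 0.20 and 0.08 at GV, MI and MII, and none passed. AA545190, Gm1070 and Gm47432 also passed at no stage in KO against WT.

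**Figure D1:**
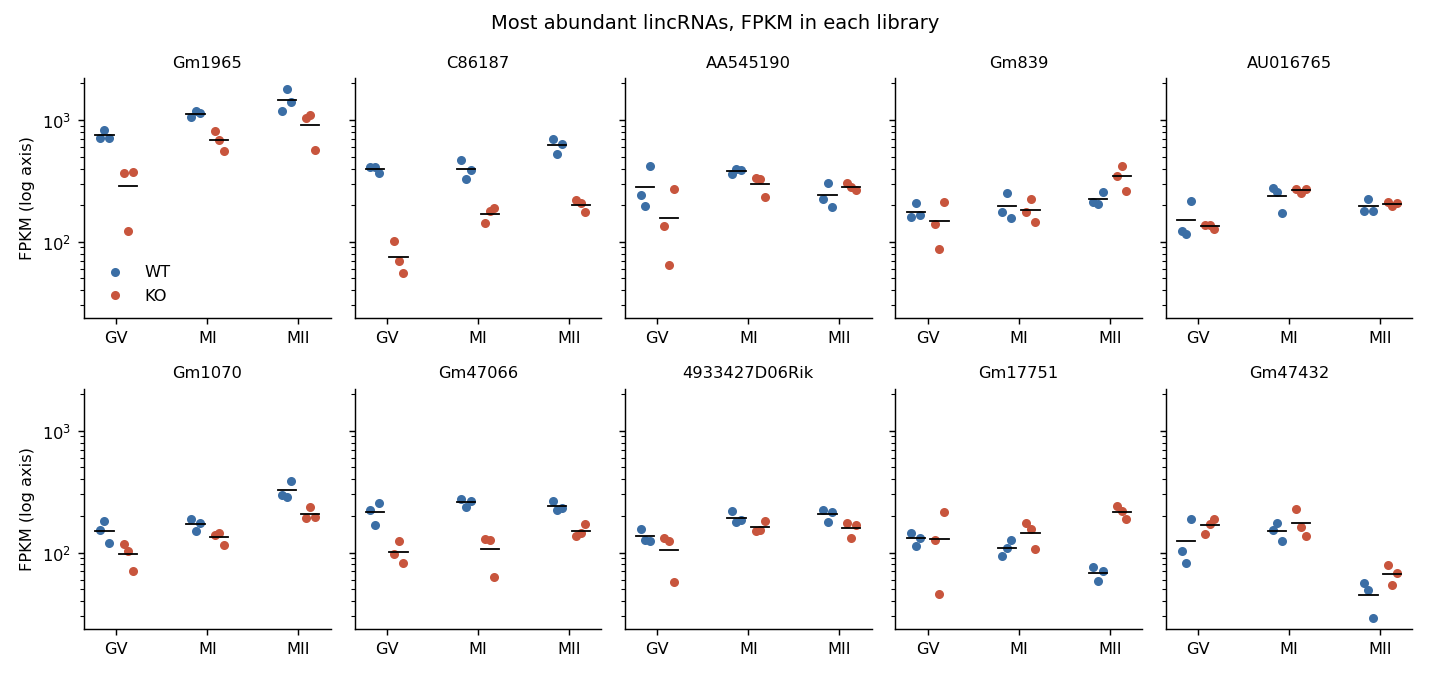
Level of the 10 most abundant lincRNAs (FPKM, log axis) in each library by stage, with WT in blue and KO in red. Points are single libraries and bars are group means of 3. C86187 lies lower in KO at every stage, and Gm17751 separates at MII, with 76.0, 58.3 and 70.2 FPKM in WT and 242, 220.4 and 187 in KO.

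At GV, 59 of the 499 expressed lincRNAs were lower in KO and 31 were higher. The share called was 18.04% against 20.8% of all 10320 genes tested. Falls were 11.8% of the lincRNAs against 7.49% of all genes, and rises 6.21% against 13.3%. The median log2 change of (FPKM + 1) was -0.10 for lincRNAs and 0.17 for all genes. Median-of-ratios scaling moved the median of all genes to -0.02 and the lincRNA split to 24 higher and 111 lower, and quantile normalization gave 28 higher and 108 lower. The counts moved with single libraries: without the second KO GV library 13 were higher and 54 lower, without the third 57 and 75, and without the third WT GV library 18 and 36. Without the first or second WT GV library 19 or 14 were higher. A model of the 2 GV groups alone called 4 higher and 20 lower.

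Gm20617 had the largest fall at GV among lincRNAs that averaged 5 FPKM or more in the higher group. It stood at 15.3, 11.6 and 23.6 FPKM in WT and 0.708, 0.483 and 2.53 in KO (log2 change -3.05 with SE 0.33, adjusted p = 1.01e-05). Gm26791 (chr14:118363732-118384768) stood at 5.41, 9.01 and 9.28 FPKM in WT and 1.07, 0.548 and 0.259 in KO (log2 change -2.45 with SE 0.31, adjusted p = 5.21e-05). In both, the highest KO library was far below the lowest WT library. Lack of overlap was a condition for naming the largest changes of a comparison, here and below, and is no further support. Gm8579 (-2.05 and -1.43 at GV and MI), Gm47923 (-2.10 at GV) and 7420700N18Rik (-1.98 at GV) also fell, and these calls were kept in all 27 alternatives. 7420700N18Rik stood at 21.9, 25.1 and 21.2 FPKM in WT and 5.59, 5.02 and 4.42 in KO, with no overlap. Zfp813-ps, named as a zinc finger pseudogene, had a log2 change of -1.81 (adjusted p = 0.00287), which did not pass with the 2 GV groups alone (adjusted p = 0.0613). The whole transcript of Gm8579 matched Gm49231 and 53.4% of that of Zfp813-ps matched Gm28363, so their reads are uncertain, though both copies averaged under 1 FPKM in each group.

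1700116B05Rik (chr16:50783409-50784091) had the largest rise at GV. It stood at 0.318, 1.33 and 2.89 FPKM in WT GV and 12.3, 22.1 and 24.3 in KO GV (log2 change 3.12 with SE 0.41, adjusted p = 7.12e-05). By the condition for naming, all 3 KO libraries were above the highest WT library. The call was kept in all 27 alternatives. By MII it was near 0 in both genotypes, at 0, 0.147 and 0 FPKM in WT and 0.739, 0.597 and 0.591 in KO. Gm6961 stood at 1.23, 1.60 and 0.920 FPKM in WT GV and 5.93, 13.3 and 3.496 in KO GV (log2 change 1.77 with SE 0.34, adjusted p = 0.00202), a call lost with the 2 GV groups alone (adjusted p = 0.0625). Gm48578 (log2 change 1.69) and Gm12589 (1.40) were highest in the second KO GV library and lost their calls without it (adjusted p = 0.0638 and 0.0941), Gm12589 also without the second or the third WT GV library (0.0515 and 0.0629). Gm20043 (0.94 at GV) also lost its call there without that library or the third WT GV library (adjusted p = 0.0607 and 0.0548), and kept one at MI (0.99, adjusted p = 0.00833).

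At MI, falls prevailed: 109 lincRNAs were lower in KO and 14 were higher. The share called was 24.6% against 17.3% of all genes. Falls were 21.8% of the lincRNAs against 13.7% of all genes, and rises 2.81% against 3.63%. The median log2 change was -0.33 for lincRNAs and -0.13 for all genes. Quantile normalization gave 34 higher and 90 lower, and without the second WT MI library 13 were higher and 67 lower. Without the first KO MI or the third WT MI library 8 were higher. In the second WT MI library 453 members reached 1 FPKM, against 424 in the first, 354 in the third and 325 to 356 in KO MI. The rule admitted 35 members that reached 1 FPKM in WT libraries only and 10 in KO libraries only, and these could differ in one direction more readily. They made up 24 of the 109 falls and 3 of the 14 rises at MI.

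Gm26791, Gm38025 and Gm16211 had the largest falls at MI. Gm26791 stood at 8.71, 18.03 and 14.9 FPKM in WT and 0.984, 0.326 and 1.62 in KO (log2 change -2.91 with SE 0.31, adjusted p = 4.89e-06). Gm38025 stood at 7.78, 11.3 and 12.7 FPKM in WT and 0.737, 0.252 and 0.656 in KO (log2 change -2.89 with SE 0.23, adjusted p = 2.56e-07). Gm16211 (chr4:147668518-147670854) stood at 6.77, 9.97 and 16.5 FPKM in WT and 1.05, 0.216 and 0.598 in KO (log2 change -2.85 with SE 0.31, adjusted p = 6.23e-06). In all 3 genes the KO libraries held at most 1.62 FPKM and the WT libraries at least 6.77. A transcript of Ccdc82 matches 60.3% of the Gm16211 transcript, and one of Gm36958 matches 69.7% of that of Gm38025, so reads of each pair may be exchanged. Ccdc82 averaged at most 3.34 FPKM in any group and Gm36958 at most 1.68. Gm36958 was itself lower in KO at GV, MI and MII (-0.90, -0.51 and -0.48, adjusted p = 0.000697, 0.0242 and 0.0216). Ccdc82 was lower at MII (-0.85, adjusted p = 0.0176) and not called at GV or MI (0.05 and -0.41, adjusted p = 0.899 and 0.300). The part of shared reads in these falls was not tested. Gm28078 (-2.11), 9830004L10Rik (-1.89) and Gm42980 (-1.86) were also lower at MI in all 27 alternatives.

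Of the 14 rises at MI, 7 had a mean of 5 FPKM or more in KO and no overlap between the groups, among them Gm47872, Gm31717 and Gm20362. Gm20362 (chr6:79032044-79035869) stood at 30.5, 41.6 and 18.6 FPKM in WT and 77.2, 96.1 and 52.2 in KO (log2 change 1.31 with SE 0.31, adjusted p = 0.00612), with the KO libraries above all WT libraries. Gm31717, 2.13 kb from Sdr42e1 on the same strand, stood at 38.6, 30.4 and 13.9 FPKM in WT and 72.3, 78.3 and 51.1 in KO (log2 change 1.34 with SE 0.34, adjusted p = 0.0111). The third WT library was the lowest, and without it the call was lost (adjusted p = 0.0598). The calls of 4 of these 7 depended on more than 1 library. Gm47872 (1.38) lost its call without the first or second KO MI or the third WT MI library (adjusted p = 0.0711, 0.0510 and 0.0659). Gm48584 (1.25) lost it without the first or the third KO MI or the third WT MI library (0.0798, 0.0926 and 0.134), and Gm16497 (1.08) without the first or the third KO MI or the second WT MI library (0.0735, 0.126 and 0.102). Gm28644 (1.00) lost it without the second or the third KO MI or the third WT MI library (0.0545, 0.0701 and 0.0862). Gm48762 (1.64), whose groups overlapped at MI, lost it without the first or second KO MI or the third WT MI library (0.0825, 0.0666 and 0.0833).

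At MII, 90 lincRNAs were lower in KO and 44 were higher. The share called was 26.9% against 28.6% of all genes. Falls were 18.04% of the lincRNAs against 13.8% of all genes, and rises 8.82% against 14.9%. The median log2 change was -0.06 for lincRNAs and 0.01 for all genes. Among the 216 lincRNAs that reached 5 FPKM in 3 libraries, 37 were higher and 45 lower. Without the third KO MII library 29 were higher. Members that reached 1 FPKM in 1 genotype only made up 20 of the 90 falls and 1 of the 44 rises, and 10 of the 59 falls and 6 of the 31 rises at GV. The cumulus and granulosa marker sums of the MII groups did not overlap (8.01 to 10.1 FPKM in WT and 5.60 to 7.28 in KO), nor did those of theca, stroma and endothelium (5.13 to 6.86 in WT and 4.48 to 4.80 in KO), and their part in the result was not tested.

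**Figure D2:**
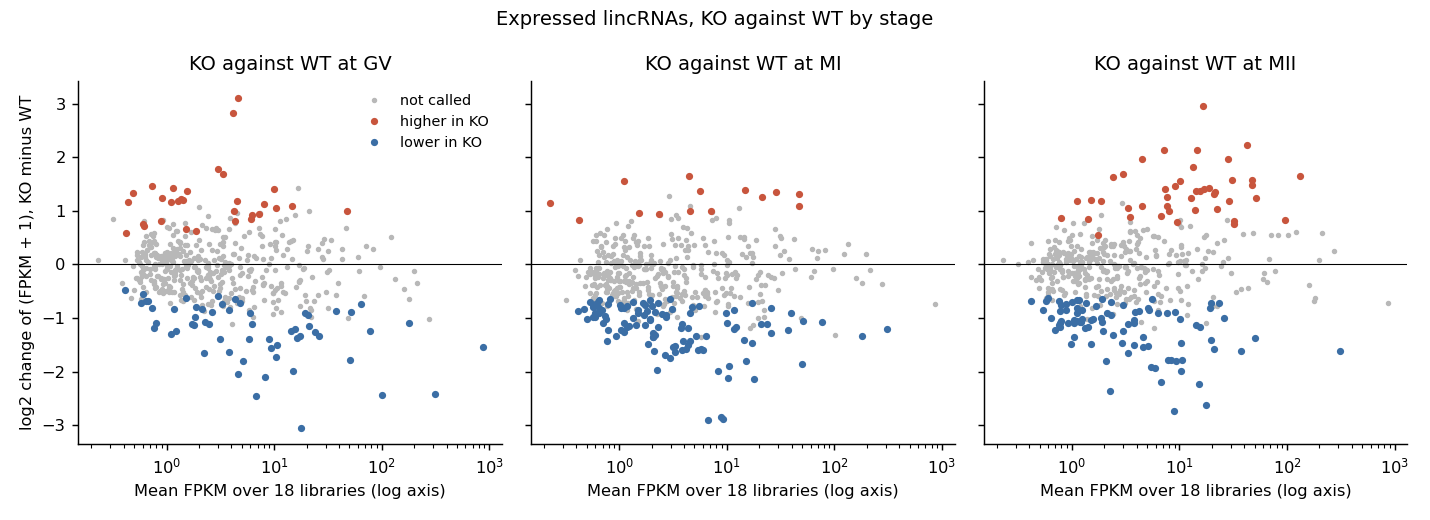
Difference between KO and WT (log2 of FPKM + 1) of each of 499 expressed lincRNAs against its mean level over 18 libraries (FPKM, log axis), at GV, MI and MII. Red points are higher and blue points lower in KO at an adjusted p under 0.05, and blue points outnumber red ones at each stage, most at MI (109 to 14).

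The falls at MII were led by Gm16211, Gm20617 and A530021J07Rik. Gm16211 stood at 7.03, 8.82 and 8.31 FPKM in WT and 0.528, 0.191 and 0.378 in KO (log2 change -2.73 with SE 0.31, adjusted p = 3.61e-06). Gm20617 stood at 44.7, 53.0 and 37.6 FPKM in WT and 9.55, 5.90 and 4.53 in KO (log2 change -2.63 with SE 0.33, adjusted p = 1.21e-05). A530021J07Rik stood at 6.40, 5.53 and 5.55 FPKM in WT and 0.464, 0.235 and 0.284 in KO (log2 change -2.36 with SE 0.18, adjusted p = 4.09e-08). The WT and KO libraries of these genes were far apart, and their calls were kept in all 27 alternatives. Gm7644 stood at 11.6, 12.6 and 10.1 FPKM in WT and 2.41, 2.15 and 2.24 in KO (-1.93). Gm34728 (-1.91) was called at MI and MII (-1.60 at MI) and not at GV (-0.50, adjusted p = 0.264).

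Gm33424, Gm44621 and Gm47872 led the rises at MII. Gm33424 (chr13:53016202-53018185) stood at 0.923, 2.13 and 0.957 FPKM in WT and 14.99, 11.3 and 26.7 in KO (log2 change 2.95 with SE 0.51, adjusted p = 0.00028). Gm44621 (chr8:8716924-8721308) stood at 3.36, 2.55 and 2.69 FPKM in WT and 28.4, 13.3 and 13.2 in KO (log2 change 2.24 with SE 0.33, adjusted p = 5.96e-05). Gm31925 (chr1:161890458-161903173) stood at 7.87, 7.19 and 7.05 FPKM in WT and 27.4, 33.9 and 34.6 in KO (log2 change 1.97 with SE 0.25, adjusted p = 1.16e-05). The lowest KO library was above the highest WT library in each, which was a condition for naming them. Gm47872 (2.14) and Gm47871 (1.82) both rose. Gm47871 is a gene of 1 exon block that lies within the span of Gm47872 on the same strand of chromosome 12 and shares no exon base with it. Gm48762 (1.97), Gm17751 (1.65) and Gm30198 (1.58) were the other named rises, and all 8 calls were kept in all 27 alternatives.

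Across the stages, 216 lincRNAs were called at 1 stage or more (43.3% of 499, against 46.2% of all genes) and 283 at none. The 3 comparisons share no library, but they share the estimate of the spread of each gene, so their calls are not independent. Lower at all 3 stages were 31 lincRNAs, 6.21% of them against 3.39% of all genes, and higher at all 3 were 5, 1.00% against 1.71%. Of the 59 falls at GV, 48 (81.4%) were also falls at MI, where they made up 44.0% of the 109 (68.6% and 37.6% over all genes tested). Falls at both MI and MII were 60, which is 55.0% of the falls at MI and 66.7% of those at MII (53.2% and 52.9% over all genes). Across the 499 lincRNAs the differences at GV and MI had a Pearson r of 0.69, those at MI and MII 0.68 and those at GV and MII 0.51, as a description across genes, which are not independent replicates. Over all 10320 genes these were 0.70, 0.61 and 0.42. Gm43950 was the single member called in opposite directions.

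The 31 lincRNAs that were lower throughout averaged from 0.414 to 310.1 FPKM, with a median of 5.12. In 15 of them all 3 calls were kept in each alternative run, which was 27 for 12 of them and 26 for 3 that do not reach the filter of 5 FPKM. Among the 12 were C86187, Gm20617, Gm26791, Gm38025, Gm28078, 7420700N18Rik, 9830004L10Rik, Gm35330, Gm20052 and A530021J07Rik. Gm28078 (chr7:37119993-37128692) was called in no comparison of stages and stood at 13.2, 16.0 and 12.1, at 22.2, 15.2 and 15.7 and at 14.2, 25.2 and 18.9 FPKM in WT GV, MI and MII. Its KO libraries stood at 3.03, 4.26 and 3.01, at 1.81, 2.93 and 6.03 and at 3.29, 3.96 and 4.97 FPKM, with differences of -1.74, -2.11 and -1.99. Gm38025 fell from GV to MII in both genotypes, from 30.7 ± 5.90 to 3.95 ± 1.11 FPKM in WT and from 9.60 ± 0.691 to 0.390 ± 0.0794 in KO (mean ± SD, n = 3). C86187 rose in both, from 397 ± 24.9 to 619 ± 86.9 FPKM in WT and from 75.6 ± 23.99 to 202 ± 21.8 in KO. The call of its rise in WT was lost without any one of 5 WT libraries (all 3 of GV and the first and the third of MII, adjusted p = 0.0507 to 0.108).

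The 5 lincRNAs that were higher throughout were Gm47872, Gm20362, Gm28644, Gm16630 and Gm33651, of which the last 2 fell under the level set for naming and are named since the count is small. Gm20362 rose with maturation in both genotypes. It stood at 15.6, 16.3 and 19.8 FPKM in WT GV and 34.9, 31.2 and 40.2 in KO GV (1.00, adjusted p = 0.0289), and at 49.5, 23.1 and 28.0 in WT MII and 103, 81.2 and 90.1 in KO MII (1.49, adjusted p = 0.00122). Its GV call was lost without the first KO GV library (adjusted p = 0.0688) or any WT GV library (0.0553 to 0.0789), and that of its rise in WT without the first or second WT GV or the first WT MII library (0.0693, 0.0593 and 0.157). Under median-of-ratios scaling Gm20362 and Gm47872 missed the threshold at GV (adjusted p = 0.0636 and 0.0641), as did Gm16630 (adjusted p = 0.0514). None of the 5 kept all 3 calls in each alternative run.

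**Figure D3:**
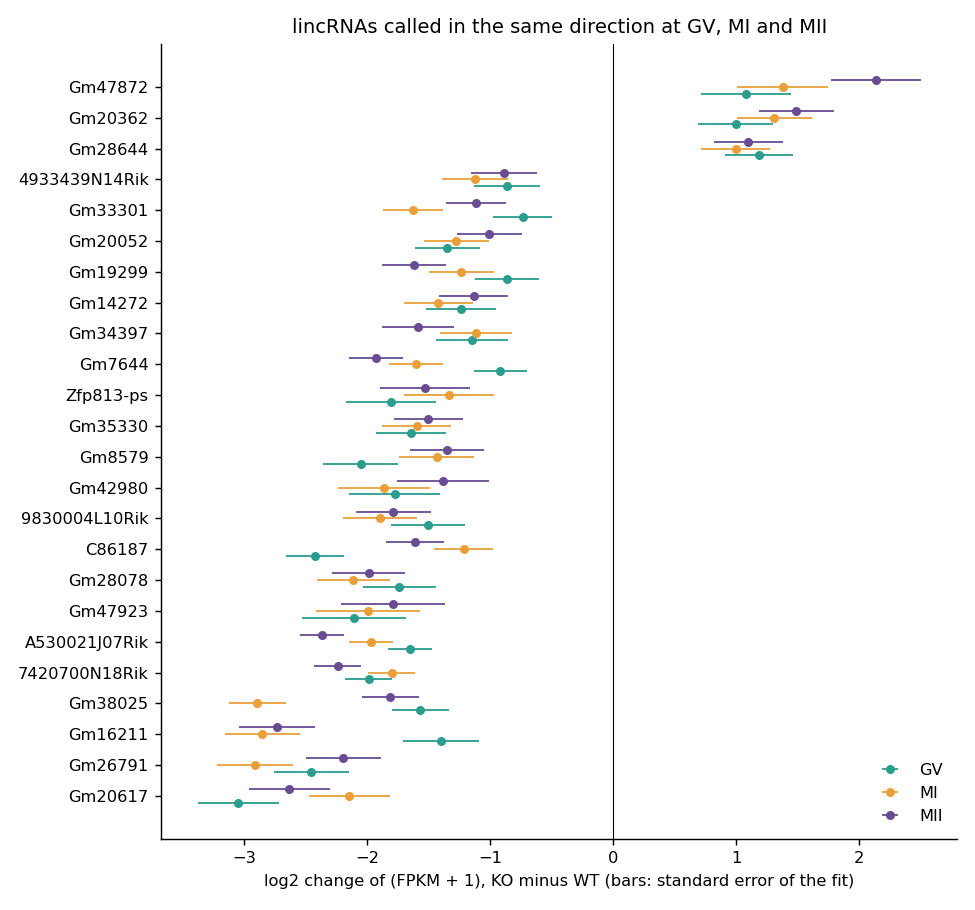
Difference between KO and WT (log2 of FPKM + 1) with its standard error at GV, MI and MII for the 24 lincRNAs called in 1 direction at all 3 stages that averaged 5 FPKM or more in some group. The 21 lower members range from -3.05 (Gm20617 at GV) to -0.73 (Gm33301 at GV), and 3 members lie above 0.

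From GV to MII in WT oocytes, 151 lincRNAs fell and 100 rose. The share called was 50.3% against 57.7% of all genes. Falls were 30.3% of the lincRNAs against 28.8% of all genes, and rises 20.04% against 28.9%. The median log2 change was -0.11 for lincRNAs and 0.09 for all genes. Quantile normalization moved the median of all genes to 0.26 and gave 139 rises and 134 falls, and without the first WT MII library 64 rose. In KO, 133 fell and 55 rose (37.7% called, against 37.2% of all genes; falls 25.4% and rises 11.9% of all genes), with 102 falls and 124 rises under quantile normalization and 36 rises without the first KO MII library. Few lincRNAs had changed by MI: 14 were higher and 8 lower than at GV in WT (4.41% called, against 4.82% of all genes, of which 2.75% rose and 2.06% fell), and 26 were higher and 33 lower in KO (11.8%, against 13% of all genes; 2.53% rose and 10.4% fell). The KO counts were 8 and 18 without the first KO MI library, and 11 higher without the second. The WT count at MI rested on single libraries and ran from 1 to 69 when each library was left out, lowest without the first WT MI library and highest without the third. With each WT GV library left out in turn it was 5, 3 and 6, without the second WT MI library 9, and without the second or the third KO GV library 61. Other scalings gave 9 higher and 22 lower (median of ratios) or 14 and 17 (quantile) in WT, and quantile normalization gave 56 higher and 28 lower in KO, where the count without the first or second KO MI library was 26 or 33.

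Gm16497, Gm30725 and Gm42980 had the largest falls in WT among lincRNAs that averaged 5 FPKM or more at GV. Gm16497 (chr12:14261534-14285725) stood at 64.1, 51.0 and 77.3 FPKM in WT GV and 2.96, 3.64 and 2.98 in WT MII (log2 change -3.94 with SE 0.31, adjusted p = 9.88e-09). Gm30725 (chr1:190419333-190444855) stood at 30.1, 34.3 and 40.5 FPKM in WT GV and 1.34, 1.41 and 1.73 in WT MII (log2 change -3.84 with SE 0.25, adjusted p = 6.81e-10). Gm42980 (chr5:127578750-127580109) stood at 157, 92.0 and 209 FPKM in WT GV and 12.8, 7.51 and 8.14 in WT MII (log2 change -3.83 with SE 0.37, adjusted p = 1.18e-07). The lowest GV library was far above the highest MII library in each, though lack of overlap was a condition for naming them. Gm44621 (-3.83), 9130204K15Rik (-3.79) and Gm43950 (-3.76) fell by similar amounts. All 6 also fell in KO, by 3.04, 2.11, 3.44, 1.88, 2.76 and 1.63 on the log2 scale in the same order.

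Gm47847, Gm33973 and Gm11381 had the largest rises in WT. Gm11381 stood at 7.83, 5.08 and 19.6 FPKM in WT GV and 36.1, 44.7 and 29.3 in WT MII (log2 change 1.85 with SE 0.42, adjusted p = 0.00108), and the third GV library was the highest of its group. Gm34728 stood at 3.66, 3.09 and 3.06 FPKM in WT GV and 16.3, 13.5 and 10.5 in WT MII (log2 change 1.74 with SE 0.33, adjusted p = 0.000207). Gm34397 (chr9:100384202-100391907) stood at 14.6, 10.6 and 20.5 FPKM in WT GV and 50.6, 45.8 and 42.6 in WT MII (log2 change 1.59 with SE 0.29, adjusted p = 0.000184). In KO, Gm34728 went from 1.76, 3.92 and 1.00 to 4.73, 1.49 and 2.81 FPKM, which did not pass (0.33, adjusted p = 0.447), and Gm34397 rose (1.15, adjusted p = 0.00453). The difference between the genotypes in the change did not pass for Gm34728 (-1.41, adjusted p = 0.0714) or for Gm34397 (-0.44, adjusted p = 0.503). Gm47847 and Gm39231 had log2 changes of 2.04 and 1.82 in WT.

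The falls at MI in KO were spread over lincRNAs with either course in WT. This pair of comparisons shares no library, but it shares the estimate of the spread of each gene. Of the 109 lincRNAs lower in KO at MI, 35 (32.1%) rose from GV to MII in WT, 32 (29.4%) fell and 42 (38.5%) were not called. Among all 499 these shares were 20.04%, 30.3% and 49.7%.

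The change from GV to MII differed between the genotypes in 25 lincRNAs (5.01%, against 5.61% of all genes), with 14 differences above 0 and 11 below (3.88% and 1.73% of all genes). All 14 fell in WT. In KO, 6 of them fell, 2 rose and 6 were not called. Of the 11 with a difference below 0, 7 rose in WT, 2 fell and 2 were not called, and in KO 5 fell and 6 were not called. The difference is computed from the same libraries as the change in each genotype. These directions thus follow in part from its sign and are no further result, and the same split was not made over all genes. Median-of-ratios scaling gave 35 above and 13 below 0, and quantile normalization 26 and 13. The split turned with only the groups compared (9 above and 13 below) and with a pseudocount of 5 (10 and 14). Leaving out single libraries gave 9 to 74, with 5 to 31 above and 4 to 43 below. The lowest count was without the first KO MII library and the highest without the third KO GV library. It was 13 without the first KO GV library, 12 and 16 without the first and the third WT GV libraries, and 16, 14 and 11 without each WT MII library in turn.

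A730082K24Rik (chr7:114948650-114983960) had the largest difference. In WT it stood at 247, 302 and 329 FPKM at GV, 63.4, 128 and 142 at MI and 38.1, 33.3 and 33.0 at MII. In KO it stood at 60.6, 17.8 and 135 FPKM at GV, 62.6, 42.2 and 27.5 at MI and 66.2, 50.9 and 40.1 at MII. KO oocytes were low already at GV (log2 change -2.43 with SE 0.49, adjusted p = 0.00279) and showed no called change to MII (-0.04, adjusted p = 0.955), while WT oocytes fell (-3.03, adjusted p = 5.12e-05). The difference in the change was 2.98 (SE 0.69, adjusted p = 0.0188), and it missed the threshold without the first KO MII library (adjusted p = 0.0596). The call at GV missed it with the 2 GV groups alone (adjusted p = 0.0740).

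Gm43950 (chr6:101028022-101081205) crossed over between the genotypes. It stood at 121, 99.0 and 114 FPKM in WT GV and 56.6, 45.5 and 81.9 in KO GV (log2 change -0.89 with SE 0.23, adjusted p = 0.0125). At MI it stood at 62.8, 80.9 and 77.6 in WT and 30.1, 38.4 and 37.0 in KO (log2 change -1.05 with SE 0.23, adjusted p = 0.00378). At MII the order was turned, with 8.40, 6.35 and 7.10 in WT and 21.1, 17.1 and 17.6 in KO (log2 change 1.25 with SE 0.23, adjusted p = 0.000455). The groups did not overlap at any stage. The difference in the change was 2.13 (SE 0.32, adjusted p = 0.00074) and was kept in all 27 alternatives. The GV call was lost without the second KO GV library (adjusted p = 0.0604) and with the 2 GV groups alone (0.121).

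Gm47448 (chr13:45235635-45335588) stood at 26.3, 23.7 and 34.9 FPKM in WT GV and 5.63, 6.15 and 4.09 in WT MII, and at 11.4, 26.5 and 11.98 in KO GV and 14.2, 11.4 and 19.9 in KO MII. Its difference in the change, 2.16 (SE 0.42, adjusted p = 0.00526), was kept in all 27 alternatives. For 1700116B05Rik the difference was below 0 (-2.47, SE 0.57, adjusted p = 0.0191), its KO level at GV being the higher one and both being near 0 at MII. It missed the threshold without the first WT GV library (adjusted p = 0.0557) and, among the scales, with a pseudocount of 0.1 (0.269) and with voom on recovered reads (0.517). Gm11479, which lies close to Gdpd1, rose in WT from 1.87, 2.21 and 2.00 to 4.60, 5.65 and 5.72 FPKM and went from 2.39, 1.92 and 1.97 to 1.42, 2.40 and 0.948 in KO, a difference of -1.35 (adjusted p = 0.0372) that was lost in 14 of the 26 alternatives run for it.

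**Figure D4:**
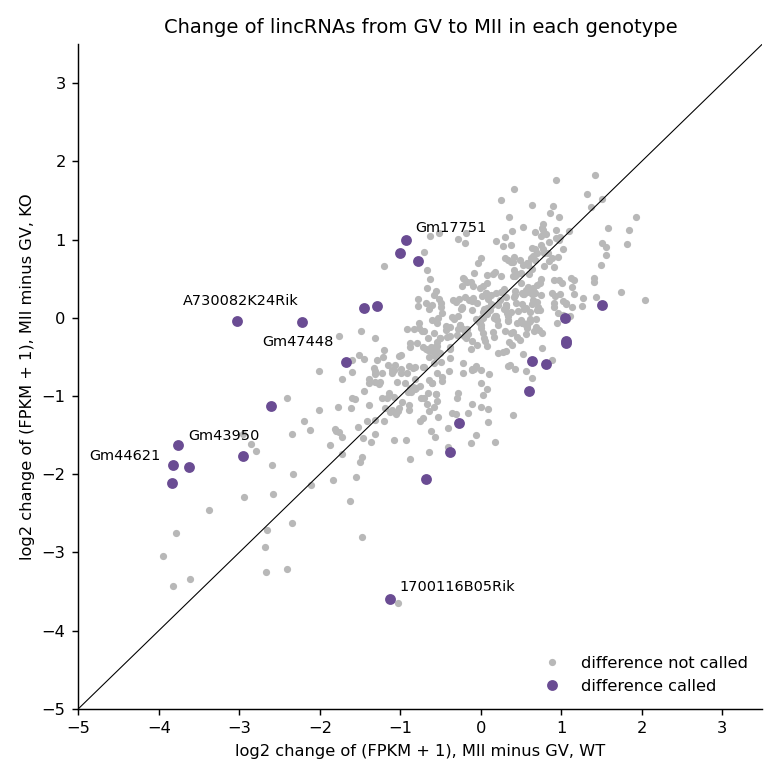
Change from GV to MII (log2 of FPKM + 1) of each of 499 expressed lincRNAs in WT (x axis) and KO (y axis), with the line of equal change. Purple points mark the 25 lincRNAs whose change differed between the genotypes, 14 above and 11 below the line.

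CPE letters at the 3′ end stood in a larger share of the lincRNAs that rose from GV to MII in WT than of those that fell. Both CPE letters were searched on the transcript's strand in the last 100 bases of the longest transcript. They stood in 28 of the 100 that rose (28.0%), 16 of the 151 that fell (10.6%) and 26 of the 248 not called (10.5%). In KO they stood in 12 of the 55 that rose (21.8%), 11 of the 133 that fell (8.27%) and 47 of the 311 not called (15.1%). Among the 90 lincRNAs lower in KO at MII, 20 had them (22.2%), and among the 44 higher 6 (13.6%). At GV 11 of the 59 lower (18.6%) and 3 of the 31 higher (9.68%) had them, and at MI 18 of the 109 lower (16.5%) and 0 of the 14 higher. In those not called the shares were 13.7%, 13.8% and 12.1% at GV, MI and MII. The background was 14.0% (70 of 499) in expressed lincRNAs, 10.9% in all 2428 lincRNAs of the table and 19.1% in tested protein-coding genes. Poly(A) signal letters in the last 40 bases stood in 48.5% of expressed lincRNAs, 44.9% of the other lincRNAs and 72.5% of protein-coding genes. The median transcript was 988.5 bases long in the lincRNAs that rose and 816 in those that fell. A match of letters is a description and no test was made of these shares. Whether the annotated ends are the ends used in oocytes was not tested.

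Gm19299 combined the letters with both changes. The 100 bases printed for it hold 3 CPE matches. It stood at 30.3, 22.4 and 29.0 FPKM in WT GV and 83.3, 72.4 and 89.5 in WT MII (log2 change 1.56 with SE 0.26, adjusted p = 7.47e-05). In KO it stood at 15.2, 19.9 and 9.78 FPKM at GV and 30.0, 23.5 and 24.4 at MII, with differences of -0.86 and -1.62 from WT. The GV call was lost without the first or the third library of KO GV or of WT GV (adjusted p = 0.0575, 0.0693, 0.0835 and 0.0910). 4933439N14Rik lost its GV call without the first or the third KO GV or any WT GV library (adjusted p = 0.0628 to 0.0961) and its MII call without the second or the third library of either MII group (0.0512 to 0.0753). It has CPE letters too and did not change from GV to MII past the threshold in WT (-0.21, adjusted p = 0.514).

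**Figure D5:**
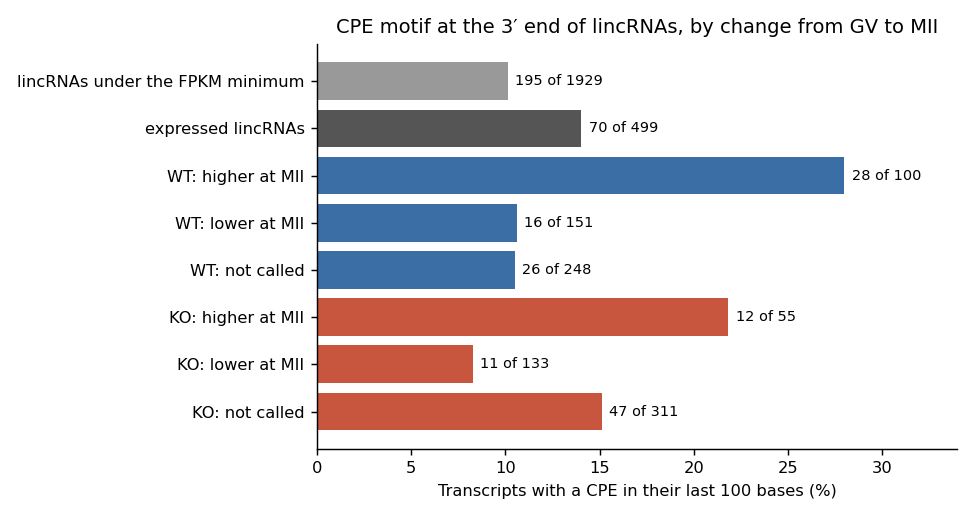
Share of lincRNAs with CPE letters in the last 100 bases of the transcript (%, x axis), in expressed lincRNAs and the others of the table and by the called change from GV to MII in WT (blue) and KO (red). Counts are printed beside the bars, and the highest share is that of the lincRNAs that rose in WT, 28 of 100.

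Shared 5′ ends stood in a larger share of expressed than of other lincRNAs, a difference that was not tested. The first 150 bases matched those of another lincRNA of the table (80 aligned bases, 75% identity, same strand) in 97 of 499 expressed lincRNAs (19.4%) and in 121 of the 1929 others (6.27%). Linked by such matches, 84 expressed lincRNAs formed 13 families. The largest had 35 members on 17 chromosomes with identities of 76.8% to 98.2%. In KO, 1 family member was higher and 5 were lower at GV, 0 and 9 at MI, and 3 and 6 at MII. The falls were 14.3%, 25.7% and 17.1% of the family, against 11.8%, 21.8% and 18.04% of all 499 lincRNAs. From GV to MII in WT, 4 rose (11.4%, against 20.04%) and 14 fell (40%, against 30.3%). Gm38025, which matched 23 of the others, was lower in KO at all 3 stages.

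The 3 genes printed beside Gm38025 showed other patterns. Gm33056 stood at 4.13, 11.9 and 7.70 FPKM in WT MI and 3.04, 5.14 and 3.57 in KO MI and passed at no stage (differences of -0.08, -0.78 and 0.17). Gm12050 stood at 7.23, 9.32 and 3.82 FPKM in WT MI and 1.38, 1.32 and 1.77 in KO MI (log2 change -1.58 with SE 0.28, adjusted p = 0.000741), and was not called at GV (0.20, adjusted p = 0.626). Gm3143 stood at 22.1, 32.7 and 20.4 FPKM in WT MII and 52.6, 30.8 and 53.3 in KO MII (log2 change 0.83 with SE 0.28, adjusted p = 0.0305). That call was lost without either the first or the third library of each group (adjusted p = 0.0980 to 0.124).

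The protein-coding gene nearest to each called lincRNA was compared with it. Of the 59 lincRNAs lower in KO at GV, 32 had a tested nearest protein-coding gene, which was lower for 2 of them and higher for 8. Of the 31 higher at GV, 14 had one, higher for 5 and lower for 2. At MI, 57 of the 109 lower lincRNAs had one, lower for 10 and higher for 5, and 7 of the 14 higher had one, higher for 1 and lower for 1. At MII, 48 of the 90 lower had one, lower for 9 and higher for 6, and 25 of the 44 higher had one, higher for 5 and lower for 5. Among all genes 13.3% were higher and 7.49% lower at GV, 3.63% and 13.7% at MI, and 14.9% and 13.8% at MII. No test was made of these shares.

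A list of 53 symbols of known long noncoding RNAs was looked up. Of these, 35 were in the table, 11 reached the minimum and 4 were typed as lincRNA: Malat1, Pvt1, Snhg6 and Snhg18. The 11 include D6Ertd527e, typed there as protein-coding. The list is not complete, and expressed lincRNAs outside it, chosen after their values were seen, include Snhg10, Halr1, Paupar, Redrum, Platr26 and Platr30. Of the 11, 2 were higher and 1 lower in KO at GV, 0 and 3 at MI, and 2 and 2 at MII. The shares of all genes tested were 13.3% higher and 7.49% lower at GV, 3.63% and 13.7% at MI, and 14.9% and 13.8% at MII. These calls include Mir22hg, Platr14 and Crnde, which are not typed as lincRNA. Malat1, a nuclear RNA of splicing speckles, stood at 1.06, 0.437 and 0.231 FPKM in WT GV and 2.87, 8.41 and 0.952 in KO GV (log2 change 1.43 with SE 0.39, adjusted p = 0.0163). The second KO GV library was the highest, and without it the call was lost (adjusted p = 0.0859), as it was without the second or the third WT GV library (0.0502 and 0.0750) and with the 2 GV groups alone (0.148). Pvt1, transcribed beside Myc, stood at 2.01, 3.34 and 2.31 FPKM in WT MI and 0.972, 1.38 and 1.02 in KO MI (log2 change -0.73 with SE 0.19, adjusted p = 0.0138), a call lost without the first KO MI or the second WT MI library (adjusted p = 0.0566 and 0.0718). Snhg6, a host gene of small nucleolar RNAs, stood at 0.932, 0.690 and 0.376 FPKM in WT MII and 2.19, 1.35 and 2.78 in KO MII (log2 change 0.88 with SE 0.32, adjusted p = 0.0462). This call was lost in 15 of 27 alternatives, with an adjusted p of 0.115 and 0.158 without the first and the third KO MII libraries and of 0.0594, 0.0945 and 0.159 without each WT MII library. It fell in WT from GV to MII (-1.51, adjusted p = 0.000689). Snhg18 was not called in any comparison of KO against WT. Exon bases of other genes cover 11.1% of those of Snhg6, 7.72% of Malat1 and 6.43% of Pvt1.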

How the data were processed

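Pools of 15 oocytes gave 18 Smart-seq2 libraries with oligo(dT) priming, per the labels. The deposited values are FPKM, computed by the authors, in 1 table. DESeq2 1.38.3 and the build mm10 appear, with no role stated, in the submitters' processing notes. Aligner, counter, annotation, strand: not given in the sources used here. Identifiers were matched to GENCODE vM21 (27829 found, 45 not). FPKM times exon length gave whole reads within 0.1 read in all libraries for 486 of the 499 members and 94.1% of matched genes, from which reads were recovered. These are PCR reads with no molecular identifiers, so read depth speaks of counting error only.

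log2(FPKM + 1) of the 10320 genes with 1 FPKM in 3 libraries entered a single model in limma 3.58.1 (R 4.3.3), with 6 group means and a variance trend. The 8 comparisons were two-sided, adjusted by Benjamini-Hochberg over all genes, with a threshold of 0.05. This scale understates the changes of low genes. On simulated data the method was tested. The alternatives tried were a pseudocount of 0.1 or 5, a filter of 5 FPKM or none, median-of-ratios and quantile scaling, only the groups compared, the replicate number as a block, voom on recovered reads, members without shared exon bases, and leaving out each library. Sequences came from GENCODE transcripts and were compared with blastn 2.17.0. Python 3.11.15 with pandas 2.3.3, numpy 2.4.6 and scipy 1.17.1 made the tables, and matplotlib 3.10.9 the figures.

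Named were the 10 most abundant members, up to 8 changes each way of each KO against WT comparison, up to 6 each way from GV to MII in WT, up to 4 each way of the difference, those called alike at all 3 stages, known lncRNAs and those at the edge of the rule. Changes had to be called and to average 5 FPKM, and those between 2 groups no overlap. The printed sequences were chosen after values were seen. Members and lists were chosen with earlier results of these data known.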

Additional observations from a re-analysis of the deposited data

Results flagged for a closer look

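For 25 lincRNAs the change from GV to MII differed between KO and WT by the test of the difference itself. Of these, 14 lay above 0 and 11 below, and only those among the named members are listed. Listed above 0 were A730082K24Rik (2.98), Gm47448 (2.16), Gm43950 (2.13), Gm44621 (1.94), Gm17751 (1.93), Gm30725 (1.73), Gm30198 (1.72) and Gm31925 (1.58), as log2 differences of KO minus WT. Listed below 0 were 1700116B05Rik (-2.47), Gm45238 (-1.38) and Gm11479 (-1.35). Some members left out differed by more than some listed, such as Gm6416 (1.84) and Gm29663 (-1.53).

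Gm17751 fell in WT from 145, 114 and 132 to 76.0, 58.3 and 70.2 FPKM, a call lost in 9 of 27 alternatives. In KO it went from 126, 45.3 and 215 to 242, 220.4 and 187 FPKM, and its spread in KO GV was the widest of its groups. Its difference missed the threshold in 12 of 27 alternatives, most of all without a filter (adjusted p = 0.125) and without the first KO MII library (0.0971), and without any one WT GV or WT MII library (0.0616 to 0.0920), the second KO MII (0.0733), the first KO GV (0.0554) or the second KO MI library (0.0503). Without the first KO MII library the differences of Gm44621, Gm30198 and Gm45238 also missed it (0.0708, 0.0923 and 0.0674). Gm44621 missed it too without the third WT GV or the second or the third WT MII library (0.0591, 0.0555 and 0.0557). Gm30198 missed it without the first or the third library of WT GV or WT MII (0.0558 to 0.0865), and Gm45238 without the first or the third WT GV or the first or second WT MII library (0.0510 to 0.0573). Gm45238 was lower at MII in KO, at 1.30, 1.44 and 1.54 FPKM against 3.67, 3.53 and 2.97 in WT (-0.85, adjusted p = 0.0112). Gm45237 covers 36.2% of its exon bases, and reads of those bases cannot be assigned with certainty. Gm30725 differed in all 27 alternatives, falling in KO from 24.1, 24.2 and 35.1 to 7.41, 5.23 and 4.44 FPKM and in WT to 1.34, 1.41 and 1.73.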

How the results depend on the processing

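Of 66 named results, 47 kept their direction and their side of the threshold in all alternatives, 51 did so without any one library, and none changed direction. These results were picked for being called in the same data, so a call kept in the alternatives is no further support. Leaving out a library of a group that is not compared changes the estimate of the spread and not the log2 change. Counts moved more. A filter of 5 FPKM, which tests 216 members, called 58 at GV, 63 at MI, 82 at MII, 132 from GV to MII in WT and 102 in KO. With no filter, which adjusts over more genes, 57 were called at GV, 8 and 31 from GV to MI in WT and KO, and 10 for the difference. Only the groups compared gave 24 at GV and 15 from GV to MI in KO. Quantile normalization gave 136 at GV and 39 for the difference, and median-of-ratios scaling 48 for the difference. From GV to MI in WT a pseudocount of 0.1 gave 12 and voom on recovered reads 11. The cause of these shifts was not tested.

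Leaving out each library gave 54 to 132 at GV, 80 to 151 at MI, 102 to 151 at MII, 1 to 69 from GV to MI in WT, 204 to 272 from GV to MII in WT, 26 to 72 and 147 to 196 for the same steps in KO, and 9 to 74 for the difference. Replicate numbers did not pair the libraries: the deviations of same-numbered libraries correlated at -0.522 to 0.42 (median -0.05), those of others at -0.442 to 0.574 (median 0.0485). With the replicate number as a block, the counts were 94 at GV, 117 at MI, 127 at MII, 23 and 252 from GV to MI and MII in WT, 55 and 187 in KO, and 21 for the difference. A median under 10 reads per library in 101 members limits what small changes could be seen in them.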
